A study of Homo sapiens with 8 samples.

Results

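The estrogen receptor target genes are 36 genes that estrogen and its receptor are known to regulate in breast cancer cells, and they were followed here in ZR-75-1 cells with reduced EI24. The genes were listed by symbol, with no threshold on their measured levels, but they were chosen with earlier results of these data known. Of the 36, 32 had a transcript cluster of their own on the array, among 18417 genes tested. PDZK1, RET, RARA and SGK3 lay only on clusters shared with another gene symbol, so no level was assigned to them.

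ZR-75-1 is an established luminal breast cancer line that expresses the estrogen receptor and grows in response to estrogen. Total RNA was measured in parental cells, in cells stably carrying a control shRNA against GFP (shGFP), and in clone 1 and clone 2 of cells stably carrying an shRNA against EI24 (ZR-shEI24 cells). Each of these 4 lines was hybridized to 2 Affymetrix arrays, giving 8 arrays. All lines were kept in RPMI medium with serum, and the labels record no chemical treatment. The ZR-shEI24 lines are called clones here after the first number in their labels. The methods do not say whether each is a single clone or how it was picked. Whether the paired arrays of each line stand for separate cultures is not stated, and the p-values then describe variation between arrays that may be no more than technical.

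The estrogen receptor alpha, the product of ESR1, is a transcription factor that is switched on by estradiol. It binds DNA at estrogen response elements, often far from the genes they act on, with the help of FOXA1, which opens chromatin, and of GATA3, and it recruits coactivators of the NCOA family. Its targets include secreted proteins such as TFF1, the progesterone receptor PGR, the receptor cofactor GREB1 and growth genes such as MYC and CCND1. Of these, clinics use PGR as a sign of an active receptor.

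Promoter sequence was available from RefSeq (GRCh38.p14) for 21 of the 36 target genes, as windows from 250 bases before to 50 bases after each transcription start. ADCY9, CCN5, CCND1, EGR3, FKBP4, GREB1, MAPT, MYBL1, MYC, NAT1, RERG, SCNN1A, SGK3, TFF1 and TFF3 had no entry. The full estrogen response element was searched as GGTCANNNTGACC, which reads the same on both strands, and its single arm as GGTCA on both strands, so that an arm on the other strand appears as TGACC. The full element was found in 0 of 21 target genes and in 5 of 14242 genes with a window (0.0351%). The single arm was found in 11 of 21 target genes (52.4%) and in 42.4% of all genes with a window. Counted by window, it was in 38.2% of those of the target genes and 35.3% of all. These shares are descriptions of the letters in a short window, and the absence of a match says nothing about binding elsewhere. The target genes with a single arm were ABAT, AGR3, CA12, CXCL12, KCNK5, NRIP1, PDZK1, RARA, SERPINA1, SERPINA3 and SLC39A6.

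The windows of PRLR and HSPB8, which fell as steeply as CXCL12, and of AGR2, which differed most between the clones, held no arm. Only windows with an arm are printed, and those of CXCL12, CA12 and SERPINA1 were picked. These genes fell steeply, fell by different amounts in the clones, and rose, respectively. All lie on the minus strand and are printed 5′ to 3′ in the direction of transcription, with each single arm in capitals. Positions count from the start, the base just before it being -1. CXCL12 (chr10:44385048-44385347) held 1 arm at -208, and CA12 (chr15:63381797-63382096) held 1 at -196. Of 2 windows of SERPINA1, the one at chr14:94388553-94388852 held arms at -84 and 25, and the one at chr14:94390586-94390885 held 1 at -220.
CXCL12: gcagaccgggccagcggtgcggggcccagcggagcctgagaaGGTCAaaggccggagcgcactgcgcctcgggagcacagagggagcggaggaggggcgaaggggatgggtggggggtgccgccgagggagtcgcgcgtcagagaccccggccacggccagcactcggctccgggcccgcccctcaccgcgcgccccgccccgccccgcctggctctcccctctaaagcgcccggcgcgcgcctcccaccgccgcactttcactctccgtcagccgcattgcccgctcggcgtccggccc
CA12: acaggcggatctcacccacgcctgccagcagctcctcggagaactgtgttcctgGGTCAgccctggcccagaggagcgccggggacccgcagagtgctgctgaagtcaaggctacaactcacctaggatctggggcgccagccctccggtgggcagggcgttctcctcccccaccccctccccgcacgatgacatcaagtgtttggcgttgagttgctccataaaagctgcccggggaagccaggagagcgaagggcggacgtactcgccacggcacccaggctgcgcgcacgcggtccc
SERPINA1, arms at -84 and 25: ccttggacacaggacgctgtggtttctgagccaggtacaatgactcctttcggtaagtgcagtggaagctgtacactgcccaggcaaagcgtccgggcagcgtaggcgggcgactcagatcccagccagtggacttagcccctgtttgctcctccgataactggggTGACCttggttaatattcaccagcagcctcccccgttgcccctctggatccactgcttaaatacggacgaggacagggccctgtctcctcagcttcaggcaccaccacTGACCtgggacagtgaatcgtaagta
SERPINA1, arm at -220: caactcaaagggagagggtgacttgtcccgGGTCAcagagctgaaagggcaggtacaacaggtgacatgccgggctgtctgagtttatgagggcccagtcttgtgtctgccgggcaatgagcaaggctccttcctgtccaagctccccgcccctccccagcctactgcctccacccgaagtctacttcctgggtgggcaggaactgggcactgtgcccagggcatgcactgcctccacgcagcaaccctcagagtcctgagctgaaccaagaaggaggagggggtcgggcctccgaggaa

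EI24 itself was lower on all 4 ZR-shEI24 arrays than on the control arrays, with log2 intensities of 8.43 to 9.25 in the clones, 11.91 and 11.97 in shGFP cells, and 12.08 and 12.09 in parental cells (log2 difference from shGFP -3.06, SE 0.08, adjusted p = 8.6e-09 from limma). The clones also stood apart in cell type markers. All 9 measured markers of luminal breast cells were lower than in shGFP cells, their mean log2 level being 8.77 to 9.07 in the clone arrays and 11.53 to 11.55 in the shGFP arrays, although the keratins KRT8 and KRT18 remained at percentiles 98.4 and 97.5 of all genes. All 9 measured markers of mesenchymal-like breast cancer lines were higher, at 11.90 to 12.12 against 6.70 to 6.76. Of all genes tested, 29.0% were called lower and 26.8% higher in this comparison. None of 8 fibroblast markers passed the test, at 5.89 to 6.07 against 5.81 to 5.85, with DCN and LUM among the dimmest genes on every array. The part of this marker shift in the results that follow was not tested.

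ESR1, the receptor gene, was at background level in both clones. It gave log2 intensities of 5.92 and 6.11 in clone 1 and 6.04 and 5.81 in clone 2, against 10.75 and 10.78 in shGFP cells and 10.70 and 10.59 in parental cells. All ZR-shEI24 arrays lay far below all control arrays, and the clone level fell within the dimmest 25% of genes, where intensity is mostly background, so the difference was at least 27.8-fold (log2 difference -4.80, SE 0.09, adjusted p = 1.9e-09 from limma). A second, dimmer cluster of ESR1 did not pass the test (0.04, adjusted p = 0.71 from limma). In RNA from whole cultures, a smaller number of cells expressing a gene and less of its RNA per cell cannot be told apart.

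PGR, the progesterone receptor gene and a classical estrogen target, read 5.91, 6.02, 5.28 and 5.95 in the ZR-shEI24 arrays, 10.02 and 9.97 in shGFP cells and 9.53 and 9.47 in parental cells. It was at least 18.4-fold lower than in shGFP cells (log2 difference -4.21, SE 0.16, adjusted p = 5.5e-08 from limma). GATA3 gave 7.25 to 7.57 in the clones and 12.21 and 12.24 in shGFP cells, a 28.1-fold fall (-4.81, SE 0.10, adjusted p = 2.6e-09 from limma). FOXA1 fell from 11.82 and 11.85 to between 9.35 and 9.59 (-2.34, SE 0.07, adjusted p = 1.9e-08 from limma), and stayed at percentile 77.7 of all genes. ESR1 and PGR were thus at background in the clones, and FOXA1 was not.

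Of 26 listed nuclear receptors, pioneer factors and cofactors of the estrogen receptor, 21 were measured, and 16 of them were lower in ZR-shEI24 than in shGFP cells. The shares of all genes called were 29.0% lower and 26.8% higher. By limma 0 were higher, also 0 at an unadjusted p under 0.05, and the unpaired test of the methods gave 0 higher as well. Their median log2 difference was -0.80, against 0.08 for all genes. At least 2-fold lower, beside the 4 genes above, were TFAP2C (-2.18) and SPDEF (-1.94), both transcription factors of luminal cells, and the coactivator gene NCOA2 (-1.33). The 5 that did not pass were CARM1 (-0.12), GPER1 (-0.11), ESR2 (-0.03), EP300 (0.09) and MED1 (0.16). In clone 2 alone, MED1 did pass as higher than in shGFP cells (0.25, adjusted p = 0.039 from limma). Against parental cells MED1 was higher (0.28, adjusted p = 0.012 from limma) and CARM1 lower (-0.28, adjusted p = 0.012 from limma). GPER1 and ESR2 encode the other known estrogen receptors, and ESR2 lay in the dimmest 25% of genes in the clones and in shGFP cells, so no difference could be read from it.

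Among the 32 target genes, 27 were lower and 2 higher in ZR-shEI24 than in shGFP cells, and 3 did not pass the test. Target genes were thus called lower in 84.4% of cases and higher in 6.25%, beside 29.0% and 26.8% of all genes. Their median log2 difference was -1.15, and 17 were at least 2-fold lower and 1 at least 2-fold higher. Over all 18417 genes, 1672 were at least 2-fold lower and 1600 at least 2-fold higher. In 25 target genes all 4 ZR-shEI24 arrays lay below all 4 control arrays, beside 26.9% of all genes, and in 2 they lay above, beside 23.8%. The other 5, SERPINA3, MYC, CCND1, CCN5 and AGR3, overlapped. The plot of single arrays shows ESR1, PGR, the 5 target genes with the largest falls and the 2 that rose. It also shows those that differed at least 2-fold between the clones or between the control lines.

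**Figure D1:**
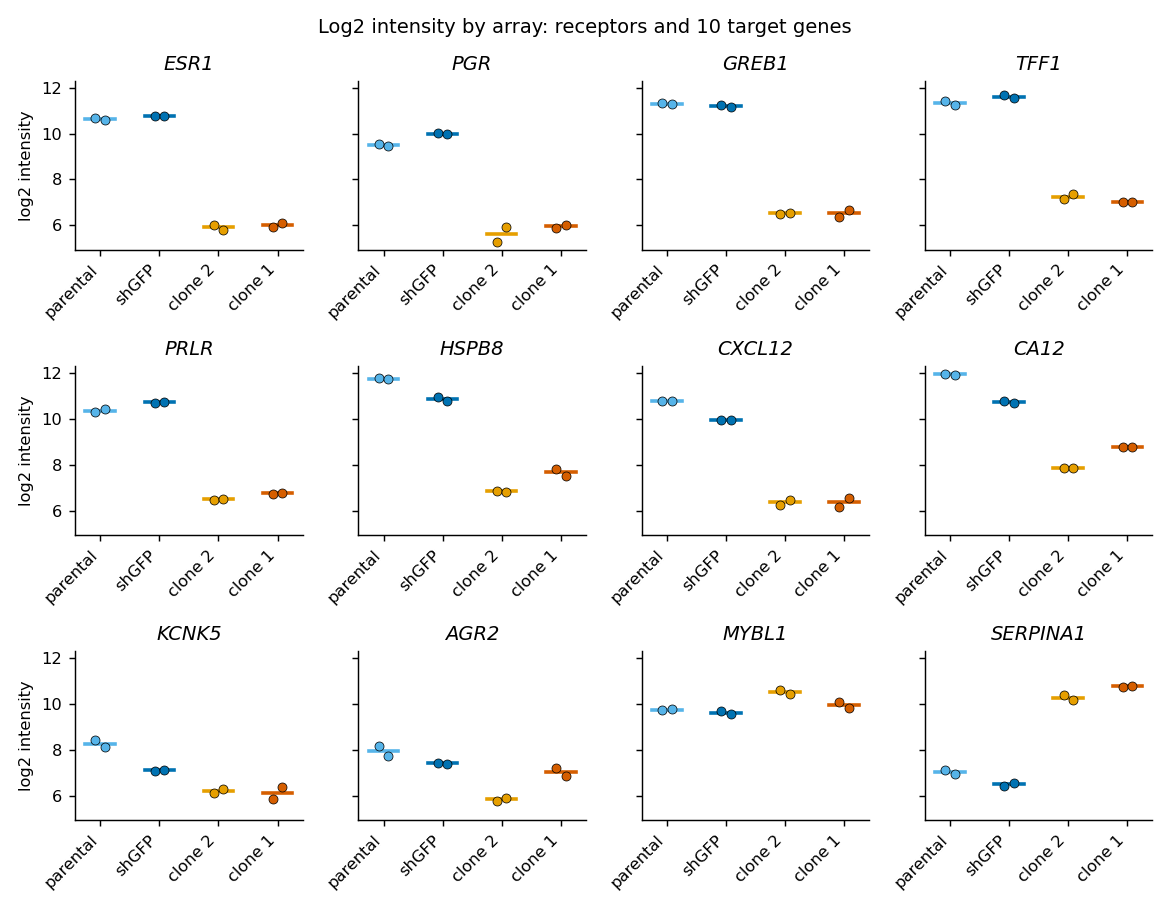
Log2 intensity (y axis) of ESR1, PGR and 10 target genes on each array, by line; dots are arrays and bars the mean of the 2 arrays of a line. ESR1, PGR, GREB1, TFF1 and PRLR lie far lower in both ZR-shEI24 clones than in shGFP and parental cells, and SERPINA1 lies higher. CA12, AGR2, HSPB8, MYBL1 and, by less, SERPINA1 separate the clones.

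Among the secreted target proteins, TFF1 and CXCL12 fell steeply and SERPINA1 rose. Of 9 measured, 6 were lower, 1 was higher and 2 did not pass, with a median log2 difference of -0.97. Beside this and the groups below stand the shares of all genes, 29.0% lower and 26.8% higher. TFF1, the trefoil peptide also known as pS2, read 7.02 and 7.02 in clone 1, 7.15 and 7.36 in clone 2, 11.66 and 11.53 in shGFP cells and 11.44 and 11.26 in parental cells. No clone array came within reach of a control array, and the fall was 22.0-fold (-4.46, SE 0.09, adjusted p = 2.2e-09 from limma). CXCL12, the chemokine that binds the receptor CXCR4, read 6.17, 6.57, 6.25 and 6.47 in the clones, 9.94 and 9.92 in shGFP cells and 10.79 and 10.77 in parental cells. It fell to background level in both clones, by at least 11.8-fold (-3.57, SE 0.12, adjusted p = 2.4e-08 from limma).

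TFF3, a second trefoil peptide, fell by 1.68 on the log2 scale from shGFP cells (SE 0.09, adjusted p = 6.8e-07 from limma), and OLFM1, a secreted glycoprotein of the olfactomedin family, was lower too (-1.39, SE 0.19, adjusted p = 0.00023 from limma). AGR2, a protein disulfide isomerase of the secretory pathway (-0.97), and SERPINA3, a serine protease inhibitor (-0.79), were also lower. The mean of the clones lay in the dimmest 25% of genes for both, though clone 1 alone did not for AGR2. CCN5, a matricellular protein, was close to shGFP cells (-0.08, SE 0.14, adjusted p = 0.65 from limma), with 7.96 to 8.39 in the clones and 8.30 and 8.31 in shGFP cells. AGR3 was among the dimmest genes in every line, at 3.72 to 3.99 on the 8 arrays, so no difference could be read from it.

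SERPINA1, which encodes the protease inhibitor antitrypsin, went the other way. It read 10.74 and 10.80 in clone 1, 10.37 and 10.18 in clone 2, 6.44 and 6.57 in shGFP cells and 7.13 and 6.93 in parental cells. Every ZR-shEI24 array lay over 3 log2 units above every control array, a 16.2-fold rise over shGFP (4.02, SE 0.10, adjusted p = 4e-09 from limma). It was the only target gene at least 2-fold higher in ZR-shEI24 cells.

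All 3 surface receptor genes were lower. PRLR, the prolactin receptor, read 6.74 and 6.75 in clone 1, 6.47 and 6.52 in clone 2, 10.69 and 10.72 in shGFP cells and 10.30 and 10.41 in parental cells. The clones lay together far below both control lines (-4.09, SE 0.07, adjusted p = 1.2e-09 from limma), a fall of at least 17.0-fold, since their mean lay at percentile 25 of all genes. SUSD3, a membrane protein with a sushi domain, fell by 1.76, and CELSR2, a cadherin with several membrane passes, fell by 1.37 on the log2 scale.

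The transport and channel genes were also all lower, 5 of 5. CA12 encodes a carbonic anhydrase on the cell surface that helps set extracellular pH. It read 8.77 and 8.77 in clone 1, 7.85 and 7.84 in clone 2, 10.76 and 10.70 in shGFP cells and 11.96 and 11.91 in parental cells. The 4 lines formed 4 separate levels, and the fall from shGFP was 5.37-fold (-2.42, SE 0.07, adjusted p = 1.2e-08 from limma). SLC39A6, a zinc importer, fell by 1.96 and SCNN1A, a subunit of the epithelial sodium channel, fell by 1.49. The potassium channel gene KCNK5 read 5.86, 6.36, 6.10 and 6.29 in the clones, 7.09 and 7.13 in shGFP cells and 8.41 and 8.10 in parental cells. Its clone mean lay in the dimmest 25% of genes, so the difference from shGFP was at least 1.94-fold (-0.96, SE 0.15, adjusted p = 0.00042 from limma). Its paralog KCNK6 was far brighter and moved little, by -0.25 (SE 0.08, adjusted p = 0.021 from limma), a call that was lost without either shGFP array (adjusted p = 0.11 without replicate 1 and 0.14 without replicate 2, from limma).

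Genes of the cell cycle and signaling gave 4 falls of 5. RERG, a small GTPase named as an estrogen-regulated growth inhibitor, read 5.62 to 5.92 in the clones and 9.15 and 9.31 in shGFP cells, a difference of at least 11.3-fold (-3.50, SE 0.09, adjusted p = 5.3e-09 from limma). TPD52L1, of the tumor protein D52 family (-2.38), SIAH2, an E3 ubiquitin ligase (-1.19), and ADCY9, an adenylyl cyclase (-0.98), fell as well. CCND1, the cyclin D1 gene, stayed bright. It read 11.69 and 11.73 in clone 1, 11.36 and 11.45 in clone 2, and 11.76 and 11.72 in shGFP cells, and did not pass for the mean of the clones (-0.18, SE 0.07, adjusted p = 0.058 from limma), though it did with the replicate number as a block (adjusted p = 0.029 from limma).

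Of the 5 transcription regulators, 4 were lower and 1 was higher, with a median of -0.43, and only GREB1 and EGR3 were at least 2-fold lower. GREB1, a chromatin-bound cofactor of the receptor and one of its earliest targets, read 6.38 and 6.67 in clone 1, 6.52 and 6.55 in clone 2, 11.24 and 11.17 in shGFP cells and 11.35 and 11.27 in parental cells. It had the largest fall of all target genes, at least 25.5-fold (-4.67, SE 0.09, adjusted p = 1.9e-09 from limma). EGR3, an immediate early zinc finger factor, fell by 1.11. NRIP1, a corepressor that binds hormone-bound nuclear receptors, fell by 0.43 (adjusted p = 0.0019 from limma) and remained bright, at percentile 87.6.

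MYC read 11.62, 11.65, 11.51 and 11.50 in the clones, 11.93 and 11.89 in shGFP cells, and 11.43 and 11.38 in parental cells. It was lower than shGFP (-0.34, SE 0.07, adjusted p = 0.0028 from limma), but its clone arrays lay above the parental arrays (0.17, adjusted p = 0.07 from limma). The direction of MYC thus turned with the control line. MYBL1, the gene of A-MYB, read 10.07 and 9.82 in clone 1, 10.61 and 10.41 in clone 2, 9.67 and 9.58 in shGFP cells and 9.72 and 9.77 in parental cells. All clone arrays lay above all control arrays, by a mean of 0.61 over shGFP (SE 0.10, adjusted p = 0.00062 from limma).

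The last group, of enzymes, chaperones and a microtubule protein, was lower in 5 of 5. HSPB8, a small heat shock protein, read 7.83 and 7.50 in clone 1, 6.86 and 6.81 in clone 2, 10.96 and 10.76 in shGFP cells and 11.76 and 11.74 in parental cells. It fell 12.2-fold (-3.61, SE 0.11, adjusted p = 1.3e-08 from limma), with clone 2 below clone 1. ABAT, which breaks down the transmitter GABA, fell by 2.93. MAPT, the microtubule protein tau, fell by 0.80 and FKBP4, a cochaperone of steroid receptors, fell by 0.67. NAT1, an arylamine acetyltransferase, was lower (-0.61), but both lines lay in the dimmest 25% of genes.

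**Figure D2:**
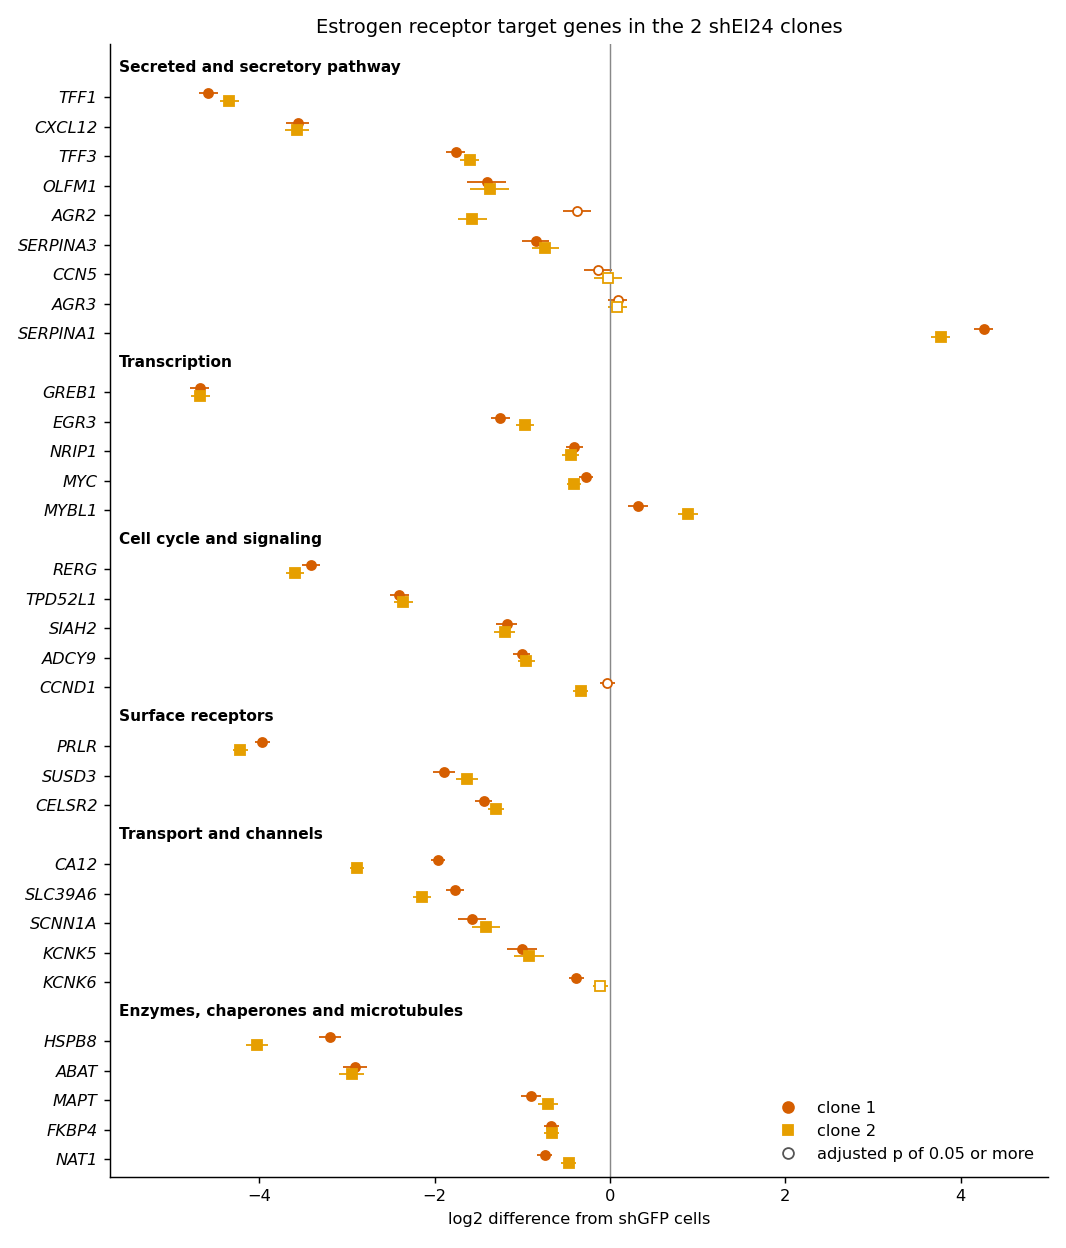
Log2 difference from shGFP cells (x axis) of the 32 measured target genes by role, for clone 1 (circles) and clone 2 (squares); bars are standard errors and open symbols did not pass at an adjusted p of 0.05 (limma). Most genes lie left of 0 in both clones, and SERPINA1 lies alone far to the right.

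The clones were also compared with shGFP cells one at a time. In clone 1, 26 target genes were lower and 2 higher, beside 26.6% and 23.0% of all genes, with a median log2 difference of -1.21. MYBL1 was no longer called in clone 1 without clone 1 replicate 1 or without any one of the shGFP or parental arrays. In clone 2, 27 were lower and 2 higher, beside 27.8% and 25.2%, with a median of -1.25. These comparisons share the shGFP arrays, so they are not independent. GREB1 (-4.68 and -4.67), RERG (-3.41 and -3.59), CXCL12 (-3.56 and -3.57) and ABAT (-2.91 and -2.95) gave close values in clone 1 and in clone 2. AGR2 and CCND1 passed in clone 2 alone, and KCNK6 in clone 1 alone (-0.38 against -0.11, adjusted p = 0.0054 and 0.31 from limma). The test of the difference between the clones did not pass for KCNK6 (adjusted p = 0.074 from limma).

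Tested against each other, the clones differed in 7 of 32 target genes, with 6 higher and 1 lower in clone 1. The shares over all genes were 9.29% higher and 5.88% lower. AGR2 differed most. It read 7.20 and 6.86 in clone 1, 5.77 and 5.90 in clone 2, 7.44 and 7.37 in shGFP cells and 8.15 and 7.71 in parental cells. Only clone 2 lay well below shGFP cells (-1.57, adjusted p = 3.8e-05 from limma), with clone 1 at -0.38 (adjusted p = 0.085 from limma) and a difference between the clones of 1.19 (SE 0.16, adjusted p = 0.0019 from limma). CA12 was higher in clone 1 by 0.93 and HSPB8 by 0.83, and MYBL1 was lower in clone 1 (-0.56), its rise being 0.32 in clone 1 and 0.89 in clone 2. SERPINA1 (0.49), SLC39A6 (0.38) and CCND1 (0.31) were higher in clone 1, but these calls and that of MYBL1 were each lost without at least 1 array. Target genes higher in clone 1 then numbered 3 without clone 1 replicate 1 or clone 2 replicate 2 and 4 without any other array, and those lower numbered 0 without clone 2 replicate 1. KRT19, a luminal keratin, also differed between the clones, being lower in clone 1 (log2 difference -2.24, adjusted p = 6.5e-06 from limma). Against shGFP cells KRT19 was at -2.67 in clone 1 and only -0.43 in clone 2, where it stayed at percentile 98.8 of all genes.

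The control line was itself compared with parental cells. Of the 32 target genes, 10 were lower and 3 higher in shGFP than in parental cells, beside 7.44% and 3.21% of all genes, and 19 did not pass. CA12 was lower in shGFP cells (-1.21, adjusted p = 0.00013 from limma) and so was KCNK5 (-1.14, adjusted p = 0.0047 from limma). These genes were the only ones that differed 2-fold. HSPB8 (-0.89), FKBP4 (-0.86), CXCL12 (-0.84), CCN5 (-0.80), ADCY9 (-0.66), NAT1 (-0.65), SERPINA1 (-0.53) and KCNK6 (-0.41) were also lower, and TFF3 (0.64), MYC (0.51) and PRLR (0.36) were higher. ESR1 and GREB1 did not pass in this comparison. Of the 13 calls, 4 (CA12, KCNK5, HSPB8 and FKBP4) held without any single shGFP or parental array, and 9 were lost without at least 1. Lower in shGFP cells were 6 without shGFP replicate 1, 4 without shGFP replicate 2, 6 without parental replicate 1 and 10 without parental replicate 2, and higher were 0, 1, 1 and 1 in the same order.

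Measured from parental cells instead, 27 target genes were lower in ZR-shEI24 cells and 2 were higher, beside 30.8% and 25.1% of all genes, and the median log2 difference was -1.53. Several genes that were already lower in shGFP cells thereby showed a larger fall, such as CA12 (-3.63), HSPB8 (-4.50), CXCL12 (-4.41), KCNK5 (-2.11) and FKBP4 (-1.53). CCN5 (-0.88, adjusted p = 0.00049 from limma) and CCND1 (-0.35, adjusted p = 0.0026 from limma) passed against parental cells though not against shGFP cells. TFF3 (-1.04) and PRLR (-3.73) fell less. SERPINA3 did not pass against parental cells (-0.25, adjusted p = 0.15 from limma), its clone arrays of 6.24 to 6.67 overlapping the parental 6.82 and 6.54.

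**Figure D3:**
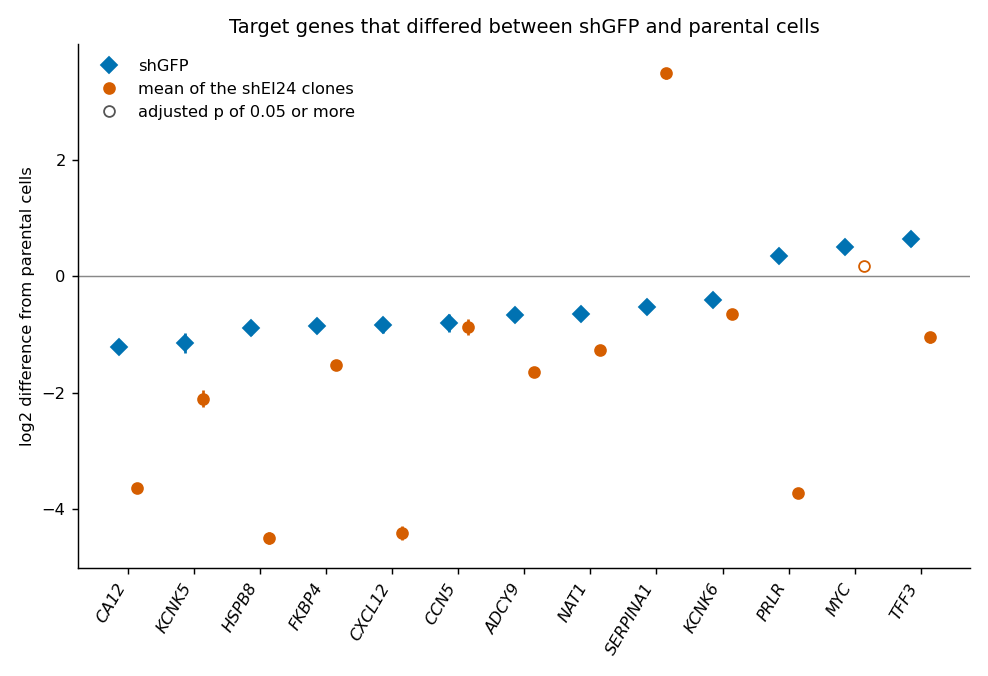
Log2 difference from parental cells (y axis) of the 13 target genes that differed between shGFP and parental cells. Diamonds are shGFP cells and circles the mean of the ZR-shEI24 clones. Bars are standard errors and open symbols did not pass at an adjusted p of 0.05 (limma). MYC lies above 0 in shGFP cells and close to 0 in ZR-shEI24 cells. CCN5 is nearly as far below 0 in shGFP cells as in the clones.

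Some target genes are paralogs that lie near each other, and their neighbors were read in the gene order of GRCh38.p14. On chromosome 21, TFF1 (-4.46) and TFF3 (-1.68) fell, while TFF2, which lies between them, did not pass (0.09, adjusted p = 0.59 from limma) and neither did TMPRSS3 beyond TFF1 (0.03, adjusted p = 0.79 from limma), which lay in the dimmest 25% of genes in the clones and in shGFP cells. ABCG1, a sterol transporter gene beside TFF3, fell by 0.75. On chromosome 7, AGR2 lies between TSPAN13, a tetraspanin gene that fell by 1.71, and AGR3. AHR, the aryl hydrocarbon receptor gene beyond AGR3, rose by 3.26 (adjusted p = 5e-09 from limma). It was itself lower in shGFP than in parental cells (-1.16, adjusted p = 0.00031 from limma), and its rise from parental cells was 2.10. BZW2 beyond TSPAN13 (0.06, adjusted p = 0.58 from limma) and SNX13 beyond AHR (-0.23, adjusted p = 0.1 from limma) did not pass.

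On chromosome 14, SERPINA1 rose by 4.02 and SERPINA3, in the same cluster of protease inhibitor genes, was lower (-0.79). The measured inhibitor genes between them, SERPINA11, SERPINA9, SERPINA12, SERPINA4 and SERPINA5, had differences of 0.09 to 0.22, and none passed. SERPINA6 (0.02) and SERPINA10 (0.19), on the other side of SERPINA1, did not pass either. SERPINA9, SERPINA12, SERPINA4, SERPINA5 and SERPINA6 lay in the dimmest 25% of genes in the clones and in shGFP cells, so no fall could be read from them. On chromosome 8, the measured genes on either side of MYBL1, VXN (-0.10) and VCPIP1 (0.06), did not pass. Beyond VCPIP1, MCMDC2 lay in the dimmest 25% of genes in the clones and in shGFP cells and did not pass (-0.04). TCF24, the next measured gene, was slightly higher (0.22, adjusted p = 0.033 from limma). ADHFE1, an alcohol dehydrogenase gene beyond VXN, was higher (0.60, adjusted p = 0.0024 from limma) but lay in the dimmest 25% of genes in the clones and in shGFP cells.

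**Figure D4:**
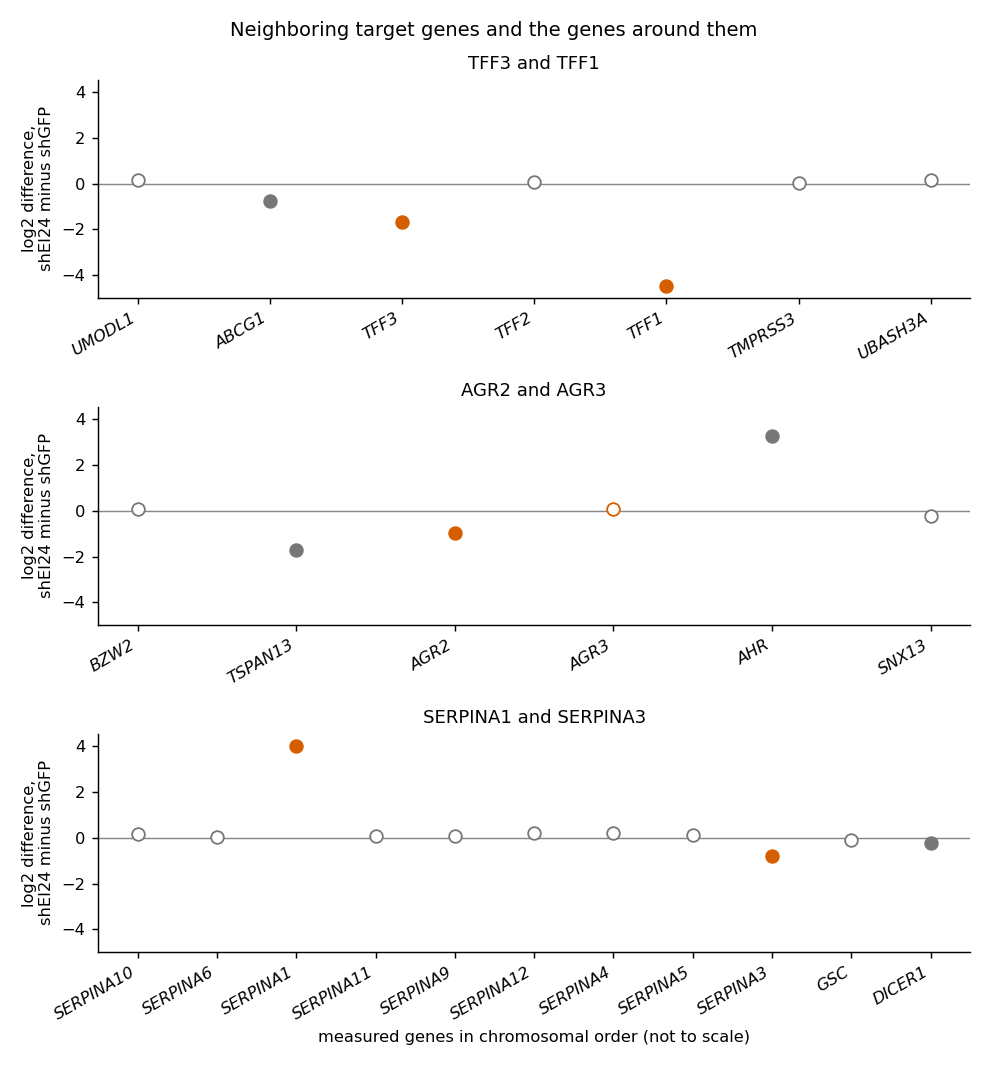
Log2 difference between ZR-shEI24 and shGFP cells (y axis) of measured genes in chromosome order around TFF1 and TFF3, AGR2 and AGR3, and SERPINA1 and SERPINA3; orange marks target genes, bars are standard errors and open symbols did not pass at an adjusted p of 0.05 (limma). SERPINA1 stands at 4.02 among inhibitor genes near 0, most of them at background level, and TFF2 lies near 0 between TFF3 and TFF1.

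A further list of 22 estrogen-responsive genes outside the 36, also chosen with earlier results known, was read the same way. Of 21 measured, 18 were lower in ZR-shEI24 than in shGFP cells, 2 were higher and 1 did not pass, beside 29.0% lower and 26.8% higher of all genes, with a median log2 difference of -1.53. The largest falls were those of ELOVL2, a fatty acid elongase (-6.49, at least 90.1-fold), GFRA1, a receptor for GDNF (-5.36, at least 41.0-fold), STC2, the hormone stanniocalcin (-3.77, at least 13.7-fold), and the transcription factor gene MYB (-3.26). STC2 was itself higher in shGFP than in parental cells (1.36, adjusted p = 0.0017 from limma), and its difference from parental cells was -2.41. IGFBP4, which binds insulin-like growth factors, rose by 1.90 and ISG20, an exonuclease, rose by 0.59, and RAB31, a small GTPase, did not pass (0.08). MYB fell while its paralog MYBL1 rose.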

How the data were processed

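Total RNA of ZR-75-1 lines was hybridized to Affymetrix arrays. The array is called human exon 1.0 st in the methods, while the identifiers matched the annotation of the Human Gene 1.0 ST array. The deposited values are log2 intensities, which the submitters' processing notes attribute to GCOS and RMA, with versions not given in the sources used here. The RMA step removes background and equalizes array distributions, so a shift in total RNA of the cells is invisible and low values compress differences. Array medians were 7.28 to 7.39.

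Of 33297 transcript clusters, those with 1 gene symbol were kept, and the brightest cluster per gene was used (18417 genes). Clones were read from the first number of the labels. A mean per line was fitted in R 4.3.3 using lmFit and eBayes of limma 3.58.1, with 4 residual degrees of freedom. Benjamini-Hochberg adjustment covered every gene, at a threshold of 0.05. A fold is a lower bound where the dimmer group lay at or below percentile 25 of all genes. The procedure was tested on simulated data with independent noise on each array. It called 90.6% of log2 changes of -1 and 87.9% of those of 1. For changes of -0.5 and 0.5 the shares were 47.9% and 47.3%, so small changes can be missed. The simulation held no shared deviation of replicate numbers between lines. The members and lists were chosen with earlier results of these data known. All measured members were named, and values per array were given for the 5 largest falls, the rises, and genes differing at least 2-fold between the clones or between the control lines. Further members and neighbors were given per array where useful. Alternatives were other controls, each line as 1 replicate, the replicate block, a variance trend, second quantile normalization, median centring, no dim genes, other cluster rules, a 2-fold threshold, the methods' t-test and leaving out each array. The number of arrays limits the precision.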

Additional observations from a re-analysis of the deposited data

Results flagged for a closer look

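In 7 target genes the effect against shGFP differed between the clones, by limma's test of clone 1 minus clone 2 with p-values adjusted over all genes. AGR2 was at -0.38 against shGFP in clone 1, which did not pass, and at -1.57 in clone 2, a log2 difference between the clones of 1.19 (adjusted p = 0.0019 from limma). CA12 was at -1.96 and -2.89 (difference 0.93, adjusted p = 0.00025 from limma), and HSPB8 at -3.19 and -4.02 (difference 0.83, adjusted p = 0.0028 from limma). SLC39A6 was at -1.77 and -2.15 (difference 0.38, adjusted p = 0.037 from limma). CCND1 was at -0.03, which did not pass, and -0.34 (difference 0.31, adjusted p = 0.04 from limma). SERPINA1 rose by 4.26 and 3.77 (difference 0.49, adjusted p = 0.018 from limma), and MYBL1 by 0.32 and 0.89 (difference -0.56, adjusted p = 0.011 from limma). Clone 1 also held less EI24 mRNA than clone 2, at 8.64 and 8.43 against 9.25 and 9.19, and the part of that in these differences was not tested.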

How the results depend on the processing

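Of 57 results for single genes, 27 kept their direction and their side of the threshold under every alternative. One direction turned: MYC was 0.17 with parental cells as the control. Called at 2-fold or more, 17 target genes were lower and 1 higher in ZR-shEI24 cells, 1 was higher in clone 1, 17 were lower and 1 higher in clone 2, 0 were lower and 1 higher in clone 1 against clone 2, 2 were lower and 0 higher in shGFP against parental cells, and 1 was higher against parental cells, with 7 receptors and cofactors lower and 11 other estrogen-responsive genes lower and 1 higher. Each line as 1 replicate, which also pools shGFP and parental cells as the control, gave 1 target gene higher and a median of -1.34, and lost AGR2, SERPINA3, NRIP1, MYC, MYBL1 and KCNK6, of which MYC was already lost with the pooled control alone (-0.09, adjusted p = 0.22 from limma). The methods' t-test gave 1 higher and lost AGR2, MYBL1 and KCNK6. Centring on the median left 1 higher in clone 1. Target genes lower in clone 1 than clone 2 numbered 3 with the replicate block and 2 with the variance trend, second quantile normalization or without the dimmest genes. Receptors and cofactors higher numbered 1 with parental cells, the pooled control or the trend, and 2 with second quantile normalization. The median of the target genes was -1.53 with parental cells, -1.34 with the pooled control, -1.28 without the dimmest genes and -1.37 without those that differed between shGFP and parental cells, an alternative chosen after seeing the data (16 of 19 lower, 1 higher). Leaving out single arrays gave 1 to 2 higher in clone 1, 0 to 1 lower and 3 to 4 higher between the clones, and 4 to 11 lower and 0 to 4 higher in shGFP against parental cells.

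Over all genes, 5348 were lower and 4941 higher in ZR-shEI24 than in shGFP cells, and 1672 and 1600 at 2-fold or more. The counts were 3423 and 2743 with each line as 1 replicate. They were 3727 and 3203 with the methods' t-test and 4981 and 5771 with second quantile normalization. Replicate numbers deviated together between lines (correlations of 0.25 to 0.59), and no source says what a shared number stands for, so whether the numbers pair the arrays was not settled with 2 per line. With the replicate block CCND1 passed (adjusted p = 0.029 from limma), and 5743 genes were lower and 6307 higher. In 8 target genes the clone mean lay in the dimmest 25% of genes, and in PRLR at its edge, which limits their folds.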
